A study of Mus musculus with 24 samples.

Results

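Gene expression after 24 h of exposure to 10 µM pioglitazone (PIO) was compared with that after 6 h in organs of Corti (OCs) from mouse pups, using the 3 PIO libraries of each time point, 6 of the 24 libraries of the series, and all genes of the deposited table. The same comparison in OCs cultured without drugs (CTRL, 3 libraries at 6 h and 3 at 24 h) was set beside it. All OCs came from C57BL/6N mice of both sexes taken at postnatal day 5, and were kept for 24 h in a serum-containing medium before the exposure began. Each library was made from 6 pooled OCs, so it averages several animals and the sex of the pool can vary between libraries. PIO groups had no drug other than pioglitazone and CTRL groups none, and every strain, age and medium was shared. The remaining 12 libraries, from OCs exposed to 50 µM gentamicin alone (GM) or with 10 µM pioglitazone (PIO + GM) for 6 or 24 h, were used only to estimate the spread between libraries and to ask whether a difference between PIO and CTRL was also seen with gentamicin present. In the PIO groups, time in culture and time with the drug are the same and cannot be told apart. The labels do not say whether the 3 libraries of a group came from separate litters or days, so p-values measure the spread between these libraries.

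The OC is the sensory epithelium of the cochlea, in which hair cells turn sound into nerve signals and supporting cells hold them in place. Dissection cuts nerve fibers, blood vessels and surrounding tissue, and an explant then lives on medium rather than blood. Pioglitazone is a thiazolidinedione that activates peroxisome proliferator-activated receptor gamma (PPAR-γ), a nuclear receptor that binds DNA together with RXR and switches on genes for fatty acid uptake, storage and oxidation, while it can also restrain inflammatory genes. Cells short of amino acids or under other stress start the integrated stress response, in which the transcription factor ATF4 raises genes for amino acid synthesis and import. Interferons act through STAT and IRF factors on a large set of antiviral genes.

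Reads counted on genes totalled 9568348 to 13849198 in the PIO 6 h libraries and 13936943 to 15548856 in the PIO 24 h libraries, so the later libraries were all deeper. The CTRL totals were 11809855 to 12660352 at 6 h and 11516308 to 15052556 at 24 h. Genes with at least 1 count numbered 20606 to 21793 in the PIO libraries at 6 h and 18164 to 19272 at 24 h, without overlap, and 20835 to 21459 and 18592 to 21059 in CTRL. Counts on olfactory and vomeronasal receptor genes, which the OC is not known to use, summed to 89.9 to 207 CPM (counts scaled to a common library size) in PIO at 6 h and 39.3 to 75.9 at 24 h, and to 100 to 117 and 38.7 to 140 in CTRL. These correspond to 0.340 to 1.11 counts per kb of gene in the PIO libraries. The log2 fold change between times also moved with the GC content of the gene, with a Spearman correlation of 0.307 across genes in PIO and 0.0344 in CTRL, and of 0.463 for the difference between the PIO and the CTRL change, on which every comparison of PIO with CTRL rests. Among the PIO 6 h libraries, replicate 3 stood apart in genes of glycolysis and hypoxia, whose summed level was 11070 CPM there and 5168 and 5377 CPM in the other two, next to 8482 to 11100 CPM at 24 h. Replicate 2 stood apart in chemokines and myelin genes, for which values are given below. The part of depth, receptor counts and GC content in the results was not tested as a cause, and the main counts under models that take each of them into account are given below. The 39 markers of hair cells were all detected, with a summed level of 963 to 1608 CPM at 6 h and 1115 to 1863 CPM at 24 h in PIO, and the 29 tested markers of supporting cells summed to 7484 to 12580 and 6541 to 14190 CPM.

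With pioglitazone, 4731 of 16317 tested genes (29.0%) differed between 24 and 6 h at an adjusted p under 0.05 by edgeR's quasi-likelihood test. Of these, 2146 (13.2% of tested genes) were higher and 2585 (15.8%) were lower at 24 h. The median size of the log2 fold change among them was 0.836, 1811 changed by more than 1 on the log2 scale and 452 by more than 2. A mean level under 1 CPM was found for 308 of the 2585 lower genes (11.9%), for 34 of the 2146 higher genes (1.58%) and for 9.44% of the genes tested. In CTRL, 4564 genes (28.0%) passed, 2413 higher (14.8%) and 2151 lower (13.2%). The 2 comparisons share no library. Both called 2999 genes in the same direction, 63.4% of the genes called in PIO and 65.7% of those called in CTRL, and 3 genes in opposite directions. Among the 1729 genes called in PIO alone, 95.0% had the same sign in CTRL. Across the tested genes the changes in PIO and CTRL had a Pearson correlation of 0.736 and a Spearman correlation of 0.765, where genes are not independent replicates. The 6 PIO libraries fitted alone gave 1540 calls and the 6 CTRL libraries 4189. With the log2 level of receptor genes as a covariate, 2470 genes were called in PIO, and removing the GC trend from each library gave 5230 and thinning all libraries to 1 depth gave 4208. The libraries of the 2 times did not overlap, whatever the test, for 20.6% of tested genes on the higher and 20.7% on the lower side in PIO, and for 24.1% and 22.3% in CTRL. The count of calls was 2702 without PIO 6 h replicate 2 and 3087 without PIO 24 h replicate 2.

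**Figure D1:**
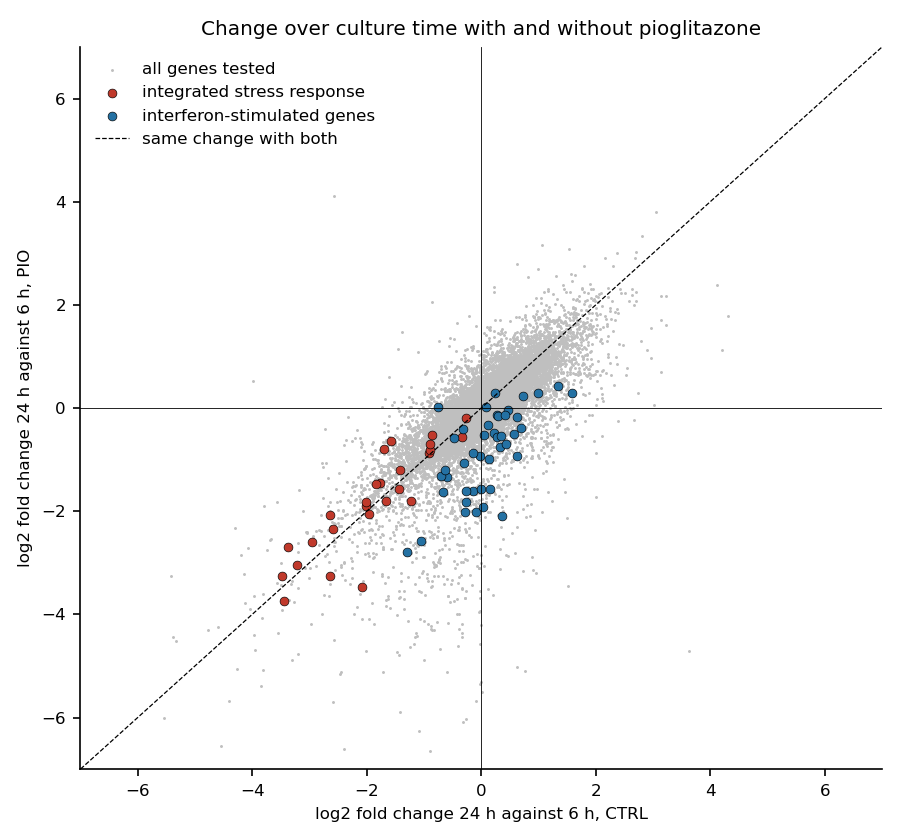
Each gray point is 1 of the 16317 tested genes, placed by its log2 fold change at 24 h against 6 h in CTRL (horizontal axis) and in PIO (vertical axis), with members of 2 gene lists in color. The integrated stress response genes (red) lie below 0 on both axes, whereas most interferon-stimulated genes (blue) lie below the dashed line of equal change.

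Whether the difference between 24 and 6 h depended on pioglitazone was tested directly as the difference between the PIO and the CTRL change. No gene passed (0 of 16317 by edgeR's quasi-likelihood test, lowest adjusted p = 0.898), with 714 genes at an unadjusted p under 0.05. DESeq2's Wald test, edgeR's likelihood ratio test and edgeR with a replicate block within each time each called 1 gene, *Ecm2*. These differences, between log2 fold changes, are given on the log2 scale throughout. Their median standard error was 0.322 on the log2 scale, against 0.228 for the change in PIO. Differences named below for single genes are therefore given as values that did not pass, with their SE.

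In the integrated stress response, all 26 tested members had a negative log2 fold change with pioglitazone, and 20 were called lower at 24 h (15.8% of all tested genes were lower). Their median was -1.80, against 0.0078 for all genes. In CTRL, 22 were called lower, also with a median of -1.80. *Asns*, the gene of asparagine synthetase, had 355, 368 and 266 CPM in the 3 PIO libraries at 6 h and 20.5, 35.4 and 47.5 CPM at 24 h. The earlier values were all several times the later ones, and the log2 fold change was -3.26 ± 0.26 (SE, edgeR adjusted p = 6.97e-07). In CTRL, *Asns* went from 306, 220 and 333 CPM to 31.6, 26.5 and 19.2 CPM, a log2 fold change of -3.47 ± 0.27 (SE, edgeR adjusted p = 4.84e-07).

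*Psat1* and *Psph*, of serine synthesis, were lower with and without the drug. *Psat1* read 484, 490 and 400 CPM at 6 h and 102, 105 and 124 CPM at 24 h in PIO, with a log2 fold change of -2.05 ± 0.16 (SE, edgeR adjusted p = 5.34e-07), and -1.95 ± 0.16 in CTRL. *Psph* went from 86.2, 95.4 and 77.1 CPM to 25.8, 22.3 and 25.9 CPM, with a log2 fold change of -1.81 ± 0.15 (SE, edgeR adjusted p = 1.03e-06) in PIO and -1.66 ± 0.15 in CTRL. For neither gene did the libraries of the 2 times overlap. *Cth*, the enzyme that makes cysteine from cystathionine, measured 19.8, 29.1 and 12.1 CPM at 6 h and 2.06, 1.63 and 2.65 CPM at 24 h, and its log2 fold change was -3.26 ± 0.28 (SE, edgeR adjusted p = 1.03e-06) in PIO and -2.64 ± 0.27 in CTRL. *Slc7a11*, the carrier that brings in cystine, read 306, 334 and 200 CPM at 6 h and 23.8, 13.8 and 38.8 CPM at 24 h with pioglitazone. Its log2 fold change was -3.46 ± 0.42 (SE, edgeR adjusted p = 2.69e-05) in PIO and -2.08 ± 0.40 (SE, edgeR adjusted p = 0.000801) in CTRL. The PIO change of *Slc7a11* minus the CTRL change was -1.38 ± 0.55 (SE, edgeR adjusted p = 0.898), and with gentamicin present the same difference was -1.56 ± 0.55 (SE, edgeR adjusted p = 0.843).

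Among regulators and signals of the response, *Atf4* fell by 1.46 on the log2 scale in PIO, *Atf5* by 1.90 and *Ddit3*, the gene of CHOP, by 1.56. The hormone gene *Fgf21* had a log2 fold change of -3.74 ± 0.60 (SE, edgeR adjusted p = 0.000267) and *Mthfd2*, of mitochondrial folate metabolism, of -3.05 ± 0.40 (SE, edgeR adjusted p = 5.31e-05). *Chac1*, whose product degrades glutathione, had a log2 fold change of -2.69 ± 0.70 (SE, edgeR adjusted p = 0.0085). These 6 members were chosen from the list after their values were seen. The smallest values among the members were those of *Ddr2* (-0.19), *Ppp1r15a* (-0.53) and *Vldlr* (-0.56), none of which passed. The count of lower members was 20 each time 1 library was left out, and ranged from 19 to 23 over the other alternatives.

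The amino acid response core, to which ATF4 binds together with C/EBP factors, has the letters TGATGCAA (TTGCATCA on the other strand). In the RefSeq promoters (build GRCm38.p6, from 250 bases before to 50 after the start of a gene), it was found in 4 of the 16 lower members with a promoter sequence (25.0%), in 1 of the 6 members that were not called, and in 85 of 12624 tested genes (0.673%). The 4 promoters are shown because they belong to members that fell by more than 1.5 on the log2 scale. Capitals mark the matched letters, each sequence reads 5′ to 3′ along the gene's strand, and the number of bases is the distance from the match to the start of the gene.
Chac1 (chr2:119351019-119351086, + strand, 193 bases): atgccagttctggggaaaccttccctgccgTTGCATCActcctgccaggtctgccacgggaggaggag
Slc7a11 (chr3:50443642-50443709, - strand, 66 bases): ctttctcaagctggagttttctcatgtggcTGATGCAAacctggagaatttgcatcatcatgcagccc
Fgf21 (chr7:45615592-45615659, - strand, 139 bases): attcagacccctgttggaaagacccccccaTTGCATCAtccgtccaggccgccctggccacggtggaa
Nupr1 (chr7:126625543-126625610, - strand, 110 bases): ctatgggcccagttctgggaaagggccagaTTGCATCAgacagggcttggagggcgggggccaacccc
In *Slc7a11* a second match, on the other strand, lies in the lower case letters 11 bases after the first. A match is a stretch of letters and was not measured as a binding site.

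**Figure D2:**
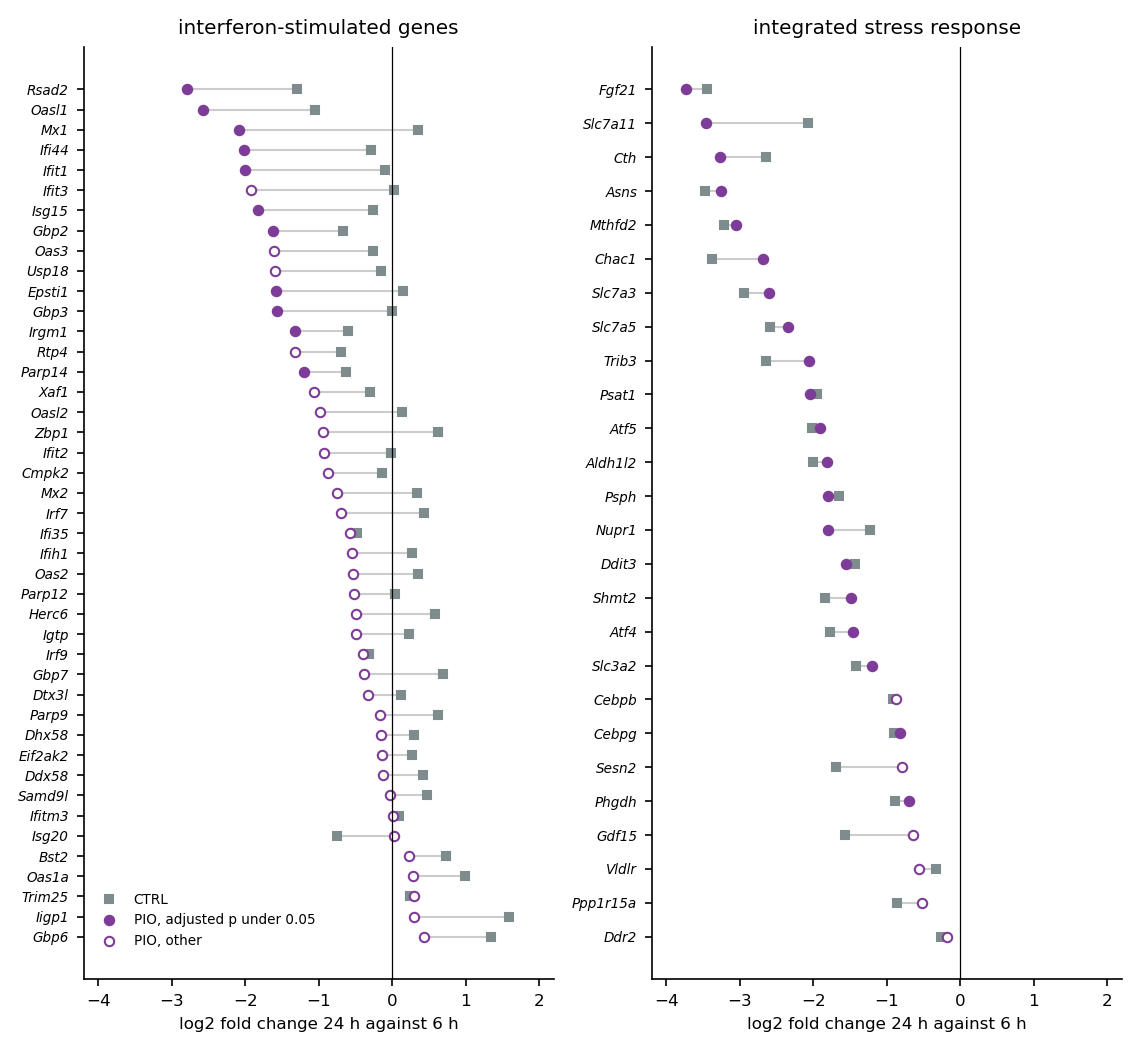
For each member of 2 gene lists the plot gives the log2 fold change at 24 h against 6 h, as a circle in PIO (filled where the edgeR adjusted p is under 0.05) and a gray square in CTRL. In the right panel squares and circles lie close together and below 0, with a median of -1.80 for both, and in the left panel the circles lie left of the squares for 41 of 43 genes.

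Of 30 tested genes of the unfolded protein response and heat shock, 17 were lower at 24 h in PIO and none was higher, with a median log2 fold change of -0.45, and 9 were lower and 1 higher in CTRL with a median of -0.21. In PIO 56.7% were thus lower, next to 15.8% of all tested genes. *Hspd1* and *Hspe1* encode the mitochondrial chaperonin and its partner. *Hspd1* went from 212, 276 and 186 CPM to 96, 79.7 and 93.8 CPM with pioglitazone, with no overlap and a log2 fold change of -1.32 ± 0.14 (SE, edgeR adjusted p = 6.43e-06), next to -1.37 ± 0.14 in CTRL. *Hsp90aa1*, an inducible cytosolic chaperone, read 482, 1050 and 482 CPM at 6 h, with replicate 2 far above the other libraries, and 233, 213 and 268 CPM at 24 h. Its log2 fold change was -1.50 ± 0.24 (SE, edgeR adjusted p = 0.00028). *Hsph1* had a log2 fold change of -1.27 ± 0.14 (SE, edgeR adjusted p = 1.38e-05). The count of lower members was 10 or 11 when PIO 6 h replicate 1 or 3 or any of the PIO 24 h libraries was left out, and 8 with the 6 PIO libraries alone. In CTRL it was 5 without CTRL 6 h replicate 1 or CTRL 24 h replicate 3, and the higher count was 0 without CTRL 6 h replicate 2 and 4 without CTRL 6 h replicate 3.

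Of 28 genes driven by NRF2, the transcription factor of the oxidative stress response, 8 were lower (28.6%) and 2 higher (7.14%) at 24 h in PIO, next to 15.8% and 13.2% of all tested genes. *Gclc*, of glutathione synthesis, had 93.2, 96.9 and 94.7 CPM at 6 h and 54.1, 48.5 and 55.8 CPM at 24 h, a log2 fold change of -0.85 ± 0.15 (SE, edgeR adjusted p = 0.000468). *Gsr*, glutathione reductase, had a log2 fold change of -0.72 ± 0.10 (SE, edgeR adjusted p = 5.88e-05) and *Txnrd1*, thioredoxin reductase, one of -0.67 ± 0.12 (SE, edgeR adjusted p = 0.000666), and in CTRL they had log2 fold changes of -0.71 ± 0.10 and -0.82 ± 0.12. *Gstm1* rose, from 11.5, 8.88 and 9.83 CPM to 19.1, 17 and 16.3 CPM (log2 fold change 0.79 ± 0.15 SE, edgeR adjusted p = 0.000893). *Cat*, the gene of catalase and also a PPAR target, went from 73.1, 61 and 81.8 CPM to 145, 126 and 129 CPM and had a log2 fold change of 0.89 ± 0.14 (SE, edgeR adjusted p = 0.000223) in PIO and 1.12 ± 0.14 in CTRL. Without PIO 24 h replicate 1, 5 NRF2 genes were called lower. Of 25 targets of p53, 7 were lower (28%) and 2 higher (8%), next to 15.8% and 13.2% of all tested genes, with 9 lower and 2 higher in CTRL. *Perp* and *Aen* had log2 fold changes of -1.81 ± 0.22 (SE, edgeR adjusted p = 2.58e-05) and -1.43 ± 0.22 (SE, edgeR adjusted p = 0.000202), *Gadd45a* of -0.89 ± 0.23 (SE, edgeR adjusted p = 0.00826) and the damage-induced *Pmaip1* of -2.03 ± 0.49 (SE, edgeR adjusted p = 0.00524), while *Sesn1* rose with a log2 fold change of 0.80 ± 0.16 (SE, edgeR adjusted p = 0.00131) and the antiproliferative *Btg2* one of 0.52 ± 0.18 (SE, edgeR adjusted p = 0.0372). The lower count of p53 targets was 4 without PIO 24 h replicate 1 or 3 and, in CTRL, 5 without CTRL 6 h replicate 2, and the higher count in PIO was 1 without PIO 6 h replicate 1 or 2 or PIO 24 h replicate 1 or 2. In CTRL the higher count was 1 without PIO 6 h replicate 1, CTRL 6 h replicate 2 or 3 or CTRL 24 h replicate 1 or 3.

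Of 34 tested chemokines and cytokines, 15 were lower (44.1%, next to 15.8% of all tested genes) and none higher with pioglitazone (median log2 fold change -1.87), and 14 were lower and 1 higher in CTRL (median -1.25). *Ccl2*, which attracts monocytes, had 6.05, 27.3 and 4.34 CPM at 6 h and 0.321, 0.52 and 0.5 CPM at 24 h. Replicate 2 stood well above the other early libraries, yet all 3 lay above every 24 h library, and the log2 fold change was -4.77 ± 1.16 (SE, edgeR adjusted p = 0.00522). *Ccl7*, of the same function, went from 4.29, 21.1 and 2.68 CPM to 0.193, 0.325 and 0.286 CPM (log2 fold change -5.06 ± 1.19 SE, edgeR adjusted p = 0.00431). *Timp1*, an inhibitor of matrix metalloproteases, had 48.2, 69.9 and 40.9 CPM and then 7.77, 8.85 and 5.65 CPM, with a log2 fold change of -2.83 ± 0.37 (SE, edgeR adjusted p = 5.31e-05), and *Ptges*, the prostaglandin E synthase, had 109, 101 and 80.9 CPM and then 24.3, 24.9 and 22.8 CPM, with a log2 fold change of -2.01 ± 0.36 (SE, edgeR adjusted p = 0.000635). Both were also lower in CTRL, with log2 fold changes of -2.70 ± 0.37 and -2.65 ± 0.37. The cytokines *Lif* and *Il11* had log2 fold changes of -2.60 ± 0.47 (SE, edgeR adjusted p = 0.000691) and -2.50 ± 0.47 (SE, edgeR adjusted p = 0.000841). No member of this list had an unadjusted p under 0.05 for the difference between PIO and CTRL. The count of lower members was 9 without PIO 6 h replicate 2 or without PIO 24 h replicate 1, and 6 with the receptor covariate. In CTRL it was 8 without CTRL 6 h replicate 2 and 9 without CTRL 24 h replicate 1, and none was higher without CTRL 6 h replicate 2 or 3 or CTRL 24 h replicate 3.

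Immediate early genes, which serum and injury switch on within minutes to hours, were lower for 10 of 30 members (33.3%, next to 15.8% of all tested genes) and higher for 1 in PIO, and lower for 15 in CTRL. Their median log2 fold change was -0.66 in PIO and -1.05 in CTRL, and 29 of the 30 had a less negative or more positive value in PIO, although no difference had an unadjusted p under 0.05. In the gentamicin libraries this pattern was not seen, as the same difference was negative for 17 of the 30, with a median of -0.018. *Fosl1*, an AP-1 subunit, had 9.03, 10.8 and 5.5 CPM at 6 h and 0.385, 0.325 and 0.357 CPM at 24 h, with a log2 fold change of -4.52 ± 0.76 (SE, edgeR adjusted p = 0.000375). *Dusp5*, a phosphatase of ERK, went from 21.5, 19 and 15 CPM to 3.73, 3.9 and 3.07 CPM (log2 fold change -2.37 ± 0.41 SE, edgeR adjusted p = 0.000502), and *Maff* and *Klf6* had log2 fold changes of -1.55 ± 0.39 (SE, edgeR adjusted p = 0.00606) and -1.08 ± 0.27 (SE, edgeR adjusted p = 0.00679). The higher member, *Btg2*, was not called without PIO 6 h replicate 1 or 2 or PIO 24 h replicate 1 or 2. Of 27 genes of matrix breakdown 4 were higher (14.8%) and 6 lower (22.2%), next to 13.2% and 15.8% of all tested genes. *Plaur*, the urokinase receptor, went from 18.1, 14.9 and 16.3 CPM to 2.06, 3.25 and 1.79 CPM (log2 fold change -2.79 ± 0.47 SE, edgeR adjusted p = 0.00042). *Timp3* was lower, with a log2 fold change of -0.70 ± 0.18 (SE, edgeR adjusted p = 0.00678). *Mmp14*, *Loxl2*, *Adamts9* and *Adamts2* rose, with *Mmp14* at 219, 116 and 302 CPM and then 438, 580 and 448 CPM (log2 fold change 1.20 ± 0.26 SE, edgeR adjusted p = 0.00266), while *Adamts9*, *Adamts2* and *Loxl2* had log2 fold changes of 0.90 ± 0.13 (SE, edgeR adjusted p = 0.000144), 0.66 ± 0.15 (SE, edgeR adjusted p = 0.00428) and 1.39 ± 0.47 (SE, edgeR adjusted p = 0.0312). Of this list, 9 genes were called higher without PIO 6 h replicate 3.

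Among keratins and related epithelial genes, 7 of 12 were lower in PIO (58.3%, next to 15.8% of all tested genes) and 10 in CTRL. *Krt8* and *Krt18*, the keratin pair of simple epithelia, went from 134, 147 and 177 CPM to 62.8, 61.9 and 54.9 CPM and from 125, 139 and 165 CPM to 57.2, 68.1 and 49.3 CPM. Neither overlapped between times, and the log2 fold changes were -1.35 ± 0.19 (SE, edgeR adjusted p = 7.47e-05) and -1.30 ± 0.23 (SE, edgeR adjusted p = 0.000527). *Sfn* had a log2 fold change of -1.32 ± 0.25 (SE, edgeR adjusted p = 0.00109). The count was 4 without PIO 6 h replicate 2 or PIO 24 h replicate 1. Among 18 targets of YAP and SRF, 3 were lower (16.7%) and 2 higher (11.1%), shares near the 15.8% and 13.2% of all tested genes. Among the lower ones were *Thbs1* and *Tagln*, with log2 fold changes of -0.92 ± 0.33 (SE, edgeR adjusted p = 0.0422) and -1.02 ± 0.26 (SE, edgeR adjusted p = 0.00686). The higher ones were the contractile genes *Tpm2* and *Myl9*, with log2 fold changes of 0.93 ± 0.22 (SE, edgeR adjusted p = 0.00445) and 0.86 ± 0.31 (SE, edgeR adjusted p = 0.047). Leaving out PIO 6 h replicate 1 or 2, PIO 24 h replicate 1 or 3 or CTRL 24 h replicate 2 left 1 of this list higher, and 6 were lower with the GC trend removed. Of 27 collagens, *Col4a3* (log2 fold change -2.83 ± 0.73 SE, edgeR adjusted p = 0.00741) and *Col4a4* (log2 fold change -1.65 ± 0.43 SE, edgeR adjusted p = 0.00836) of basement membranes were lower and *Col16a1* (log2 fold change 0.87 ± 0.31 SE, edgeR adjusted p = 0.0406) was higher. These shares, 7.41% lower and 3.7% higher, were below the 15.8% and 13.2% of all tested genes. No collagen was higher without PIO 6 h replicate 1 or 2 or PIO 24 h replicate 2 or 3, and 4 were higher without PIO 6 h replicate 3.

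Interferon-stimulated genes were the list with the lowest median difference between the change in PIO and the change in CTRL, of all lists described here. In PIO, 11 of 43 tested members were lower at 24 h (25.6%, next to 15.8% of all tested genes) and none was higher, and the median log2 fold change was -0.69. In CTRL, 3 were higher, none was lower and the median was 0.12. The mean log2 level over the list was 3.18, 3.30 and 3.70 in the PIO 6 h libraries and 2.60, 2.61 and 2.63 in the PIO 24 h libraries, which did not overlap. It ranged from 2.57 to 3.87 in CTRL at 6 h and from 2.67 to 3.90 in CTRL at 24 h, so the CTRL libraries of both times covered a wide and overlapping range. Because the study named several of these genes from these libraries, the direction of the list is not independent evidence.

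*Rsad2*, which encodes the antiviral enzyme viperin, had 23.5, 10.8 and 16.8 CPM at 6 h and 1.67, 2.28 and 3.5 CPM at 24 h in PIO. All early libraries lay above all late ones, and the log2 fold change was -2.79 ± 0.72 (SE, edgeR adjusted p = 0.00807), next to -1.30 ± 0.68 (SE, edgeR adjusted p = 0.165) in CTRL. The guanylate-binding protein gene *Gbp2* went from 13.9, 14.4 and 9.83 CPM to 3.6, 4.29 and 4.43 CPM with a log2 fold change of -1.63 ± 0.48 (SE, edgeR adjusted p = 0.0173), and in CTRL from 12.2, 28.5 and 7.1 CPM to 10.5, 5.35 and 14.1 CPM (log2 fold change -0.67 ± 0.46 SE). *Irgm1*, an interferon-induced GTPase, read 48.7, 50.9 and 37.4 CPM and then 19, 19.4 and 16 CPM (log2 fold change -1.33 ± 0.37 SE, edgeR adjusted p = 0.0125). *Ifi44* had 9.55, 6.13 and 5.13 CPM and then 1.35, 2.28 and 1.5 CPM (log2 fold change -2.01 ± 0.65 SE, edgeR adjusted p = 0.0263), and *Isg15*, a ubiquitin-like modifier, 5, 2.22 and 2.75 CPM and then 0.899, 1.17 and 0.715 CPM (log2 fold change -1.83 ± 0.64 SE, edgeR adjusted p = 0.0377). For both, the CTRL libraries overlapped between times, with *Isg15* at 3.37, 5.37 and 1.2 CPM at 6 h and 2.37, 1.12 and 4.88 CPM at 24 h. *Epsti1*, at under 1 CPM throughout PIO, had a log2 fold change of -1.58 ± 0.50 (SE, edgeR adjusted p = 0.0252). The other lower members were *Ifit1*, *Mx1*, *Gbp3*, *Oasl1* and *Parp14*, with log2 fold changes from -1.20 to -2.58.

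The difference between the PIO and the CTRL change was negative for 41 of the 43 members, with a median of -0.89 against -0.024 for all genes, and 8 members had an unadjusted p under 0.05, all of them negative. In the gentamicin libraries, which are separate, the same difference was negative for 42 of 43 members with a median of -1.07, and 19 had an unadjusted p under 0.05, all negative. No member passed adjustment over all genes in either set. The 11 lower calls in PIO did not hold up when a library was left out, with 3 members called lower without PIO 6 h replicate 1, 4 without PIO 6 h replicate 2, and 2, 4 and 4 without PIO 24 h replicates 1, 2 and 3, although the median stayed between -0.82 and -0.51. With the GC trend removed 10 members were lower and 1 higher, after thinning all libraries to 1 depth 10 were lower, and with the receptor covariate 1 was lower.

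The interferon-stimulated response element was searched as 2 copies of GAAA with any 2 bases between them, which reads TTTC on the other strand. It was found in the promoters of 6 of 9 lower members with a sequence (66.7%), of 10 of 23 members that were not called (43.5%) and of 458 of 12624 tested genes (3.63%). The first match of each of these 6 lower members is shown, so that the matches can be compared.
Rsad2 (chr12:26456533-26456602, - strand, 120 bases): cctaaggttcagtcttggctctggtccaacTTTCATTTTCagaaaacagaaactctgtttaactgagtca
Gbp2 (chr3:142620574-142620643, + strand, 59 bases): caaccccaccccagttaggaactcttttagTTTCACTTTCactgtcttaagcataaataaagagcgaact
Irgm1 (chr11:48871421-48871480, - strand, 30 bases): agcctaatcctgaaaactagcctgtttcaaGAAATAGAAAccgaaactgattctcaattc
Isg15 (chr4:156200857-156200926, - strand, 78 bases): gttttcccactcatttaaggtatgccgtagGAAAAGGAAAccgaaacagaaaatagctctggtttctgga
Ifit1 (chr19:34640755-34640824, + strand, 104 bases): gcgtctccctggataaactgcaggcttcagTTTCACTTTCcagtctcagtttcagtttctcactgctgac
Gbp3 (chr3:142559969-142560038, + strand, 45 bases): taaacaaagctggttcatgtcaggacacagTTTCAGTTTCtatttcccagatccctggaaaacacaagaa
In *Isg15*, *Irgm1*, *Ifit1* and *Gbp3*, further matches that overlap or follow the first stand in lower case. An E-box (CACGTG) was found in 5 of 18 clock promoters (27.8%, against 10.9% of tested genes) and the sterol regulatory core TCACNCCAC in 1 of 17 promoters of sterol synthesis (5.88%, against 1.38%).

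**Figure D3:**
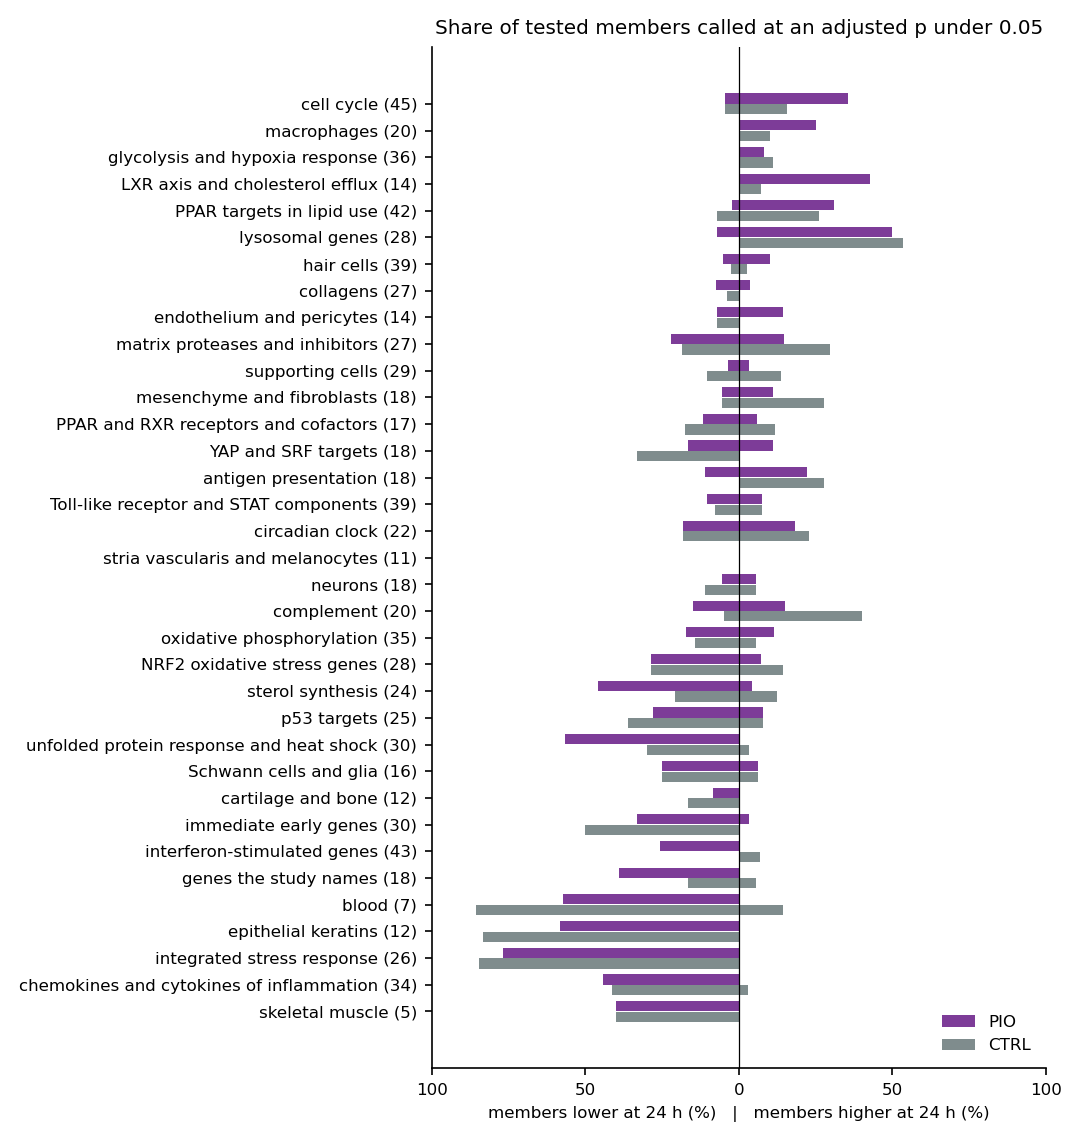
Bars give, for every list, the percentage of its tested members (number in brackets) called lower (to the left) or higher (to the right) at 24 h at an edgeR adjusted p under 0.05, in PIO (purple) and CTRL (gray). Lists are ordered by their median log2 fold change in PIO, and the interferon-stimulated genes are called to the left in PIO (11 of 43) and to the right in CTRL (3 of 43).

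Complement genes were called higher in CTRL for 8 of 20 members (40%, next to 14.8% of all tested genes) and lower for 1, and in PIO for 3 and 3 (15% each), at the 13.2% and 15.8% of all tested genes. The list's median log2 fold change was 0.84 in CTRL and -0.05 in PIO. *Serping1*, the inhibitor of the first complement component, had 10.6, 14.2 and 8.7 CPM at 6 h and 19.5, 16.8 and 34.3 CPM at 24 h in CTRL, where the times did not overlap, and 9.99, 12.1 and 12.7 CPM and 8.8, 9.89 and 8.51 CPM in PIO. Its log2 fold change was 1.07 ± 0.24 (SE, edgeR adjusted p = 0.00232) in CTRL and -0.35 ± 0.24 (SE, edgeR adjusted p = 0.273) in PIO, and the difference was -1.43 ± 0.33 (SE, edgeR adjusted p = 0.898). *C1ra*, a protease of the first component, went from 3.68, 3.7 and 4.34 CPM to 2.63, 1.5 and 1.43 CPM in PIO (log2 fold change -1.07 ± 0.37 SE, edgeR adjusted p = 0.0376) and from 2.73, 3.97 and 3.43 CPM to 4.92, 3.83 and 13.8 CPM in CTRL (log2 fold change 1.15 ± 0.36 SE, edgeR adjusted p = 0.0222), where 1 library stood above the others. *C2* had a log2 fold change of -0.92 ± 0.32 (SE, edgeR adjusted p = 0.0351) in PIO and 0.42 ± 0.31 (SE, edgeR adjusted p = 0.349) in CTRL. In all, 7 complement genes had an unadjusted p under 0.05 for the difference, all lower with pioglitazone. Single libraries decided these counts. The 8 higher genes in CTRL became 2 without CTRL 6 h replicate 1 or CTRL 24 h replicate 3 and 5 without CTRL 6 h replicate 3. In PIO, no complement gene was called higher without PIO 6 h replicate 1 or 2 or PIO 24 h replicate 2, and none was called lower without PIO 6 h replicate 1 or PIO 24 h replicate 2. In the gentamicin libraries the difference had a median of -0.013 over the list and was negative for 11 of 20 members, next to -0.23 and 14 of 20 for PIO against CTRL. *Serping1* differed by -0.996 ± 0.33 (SE, edgeR adjusted p = 0.843) there and *C1ra* by -1.19 ± 0.52 (SE, edgeR adjusted p = 0.843).

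*C1qa*, of the first component, rose from 3.15, 5.5 and 8.82 CPM to 17.9, 28 and 9.87 CPM in PIO (log2 fold change 1.66 ± 0.52 SE, edgeR adjusted p = 0.0234) and also in CTRL (log2 fold change 1.45 ± 0.52 SE, edgeR adjusted p = 0.0439). *C4b* had 7.89, 4.02 and 31 CPM at 6 h, with replicate 3 at a level that overlaps the later libraries, and 49.6, 107 and 28.5 CPM at 24 h (log2 fold change 2.08 ± 0.69 SE, edgeR adjusted p = 0.0296). *Hc*, the gene of C5, had 22 counts at 6 h and 2 at 24 h over 3 libraries each, a ratio of 14.3 after scaling to library size (exact 95% interval 3.53 to 125.9). Of 18 genes of antigen presentation, 4 rose (22.2%) and 2 fell (11.1%) in PIO, next to 13.2% and 15.8% of all tested genes, and 5 rose in CTRL. The class II gene *H2-Ab1* went from 1.75, 1.16 and 6.8 CPM to 10.5, 16 and 12.1 CPM (log2 fold change 1.95 ± 0.58 SE, edgeR adjusted p = 0.0176) and *H2-DMa* from 4.21, 2.75 and 6.15 CPM to 11, 11.3 and 12.6 CPM (log2 fold change 1.40 ± 0.28 SE, edgeR adjusted p = 0.00154), while *Tapbp* and *Tap2*, of class I loading, had log2 fold changes of 0.80 ± 0.25 (SE, edgeR adjusted p = 0.0216) and 1.03 ± 0.38 (SE, edgeR adjusted p = 0.048). Their transcriptional activators fell, *Ciita* of class II from 1.67, 1.48 and 1.59 CPM to 0.129, 0.325 and 0.143 CPM (log2 fold change -2.92 ± 0.51 SE, edgeR adjusted p = 0.000478) and *Nlrc5* of class I from 2.89, 4.23 and 5.86 CPM to 0.771, 1.5 and 1 CPM (log2 fold change -1.99 ± 0.54 SE, edgeR adjusted p = 0.0109). In CTRL they had log2 fold changes of -0.75 ± 0.41 (SE, edgeR adjusted p = 0.191) and -0.80 ± 0.50 (SE, edgeR adjusted p = 0.251). Leaving out PIO 6 h replicate 1 or 2, or PIO 24 h replicate 1 or 2, left 1 or 2 genes of presentation called higher. In CTRL the count was 2 without CTRL 6 h replicate 2 or CTRL 24 h replicate 3 and 3 without CTRL 24 h replicate 1.

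Targets of PPARs in lipid use rose more often than they fell. In PIO, 13 of 42 tested members were higher and 1 was lower at 24 h (13.2% of all genes were higher), with a median log2 fold change of 0.35. In CTRL, 11 were higher and 3 lower, with a median of 0.10. The fit on the 6 PIO libraries alone called 5 higher. In CTRL 7 were higher without CTRL 24 h replicate 3, and 0 or 1 lower without CTRL 6 h replicate 2 or any CTRL 24 h library. *Angptl4*, on chromosome 17 (33774900 to 33781575, GRCm38.p6), encodes a secreted inhibitor of lipoprotein lipase. In PIO it went from 21.4, 26.5 and 35.3 CPM to 70.3, 107 and 84.1 CPM, without overlap, a change of 3.13-fold with a log2 fold change of 1.65 ± 0.40 (SE, edgeR adjusted p = 0.00534). In CTRL it had 5.46, 22.6 and 6.3 CPM and then 7.82, 9.77 and 7.85 CPM, in which replicate 2 at 6 h lay above all others, and the log2 fold change was -0.42 ± 0.42 (SE, edgeR adjusted p = 0.486). The difference was 2.07 ± 0.58 (SE, edgeR adjusted p = 0.898), and 1.27 ± 0.57 (SE, edgeR adjusted p = 0.843) with gentamicin present. The enzymes of fatty acid oxidation *Acaa2* and *Ech1* rose with and without the drug. *Acaa2* went from 29.8, 28.8 and 35.1 CPM to 89.7, 63.4 and 77.4 CPM in PIO, with a log2 fold change of 1.30 ± 0.20 (SE, edgeR adjusted p = 0.000238) and 1.04 ± 0.21 in CTRL. *Ech1* had log2 fold changes of 0.96 ± 0.17 (SE, edgeR adjusted p = 0.00048) and 0.82 ± 0.17. *Slc27a1*, a fatty acid transporter chosen after its values were seen, had a log2 fold change of 1.03 ± 0.24 (SE, edgeR adjusted p = 0.00435) in PIO and 0.06 ± 0.24 in CTRL. *Pck1* was the lower member, with 22 counts at 6 h and 2 at 24 h over 3 libraries each, a ratio of 14.3 after scaling to library size (exact 95% interval 3.53 to 125.9). No member was called lower with the 6 PIO libraries alone, after thinning all libraries to 1 depth or with the receptor covariate.

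Other genes known to respond to PPAR agonists did not pass for the change from 6 to 24 h in PIO. Both times had the drug, so this does not show whether a gene had already responded by 6 h. *Pdk4*, which holds back glucose oxidation, had 30.5, 44.8 and 34.5 CPM and then 21.1, 26.6 and 20.9 CPM in PIO (log2 fold change -0.68 ± 0.31 SE, edgeR adjusted p = 0.108), and in CTRL its log2 fold change was -1.08 ± 0.33 (SE, edgeR adjusted p = 0.0184). *Plin2*, a lipid droplet protein, had a log2 fold change of 0.33 ± 0.22 (SE, edgeR adjusted p = 0.278) and *Cd36*, a fatty acid receptor, of -0.69 ± 0.41 (SE, edgeR adjusted p = 0.206). *Fabp4* was below the filter on low counts, with 0, 0.317 and 0.795 CPM at 6 h and 0.385, 1.56 and 0.0715 CPM at 24 h. Of 17 PPAR and RXR receptors and cofactors, 2 were lower (11.8%) and 1 higher (5.88%), below the 15.8% and 13.2% of all tested genes. *Pparg* itself was lower, with 2.02, 2.33 and 2.46 CPM at 6 h and 1.16, 0.52 and 1.29 CPM at 24 h. The times did not overlap, and the log2 fold change was -1.20 ± 0.40 (SE, edgeR adjusted p = 0.0308) in PIO and 0.22 ± 0.39 (SE, edgeR adjusted p = 0.712) in CTRL. The difference between them was -1.42 ± 0.55 (SE, edgeR adjusted p = 0.898) and, with gentamicin present, 0.14 ± 0.55 (SE, edgeR adjusted p = 0.956). *Ppargc1a*, the coactivator of mitochondrial genes, was lower with a log2 fold change of -0.81 ± 0.27 (SE, edgeR adjusted p = 0.031), where 1 library at 6 h lay within the range of the later ones, and *Ncoa2* was higher with a log2 fold change of 0.38 ± 0.12 (SE, edgeR adjusted p = 0.0206). No member of this list was called lower without PIO 6 h replicate 2 or PIO 24 h replicate 1 or 2, and none higher without PIO 6 h replicate 2 or PIO 24 h replicate 1 or 3.

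Of 14 genes of the LXR axis, which senses oxysterols and is itself induced by PPARs in some cells, 6 were higher (42.9%, next to 13.2% of all tested genes) and none lower in PIO (median log2 fold change 0.39), and 1 was higher in CTRL (median 0.31). *Abca1*, the cholesterol exporter of the cell surface, had 391, 415 and 658 CPM at 6 h and 894, 938 and 804 CPM at 24 h in PIO, and 478, 533 and 352 CPM and 509, 522 and 419 CPM in CTRL. All PIO 24 h libraries exceeded every other CTRL and PIO library. The log2 fold change was 0.85 ± 0.21 (SE, edgeR adjusted p = 0.00524) in PIO and 0.09 ± 0.20 (SE, edgeR adjusted p = 0.783) in CTRL, with a difference of 0.76 ± 0.29 (SE, edgeR adjusted p = 0.898) and, with gentamicin, of 0.91 ± 0.29 (SE, edgeR adjusted p = 0.843). *Abcg1*, the second exporter, went from 40.1, 26.3 and 49.7 CPM to 81.6, 77.4 and 75.1 CPM (log2 fold change 1.01 ± 0.20 SE, edgeR adjusted p = 0.00125), and differed from CTRL by 0.66 ± 0.28 (SE, edgeR adjusted p = 0.898) and, with gentamicin, by 0.94 ± 0.28 (SE, edgeR adjusted p = 0.843). *Srebf1*, the activator of fatty acid synthesis, rose from 106, 44.2 and 162 CPM to 255, 220 and 255 CPM (log2 fold change 1.22 ± 0.32 SE, edgeR adjusted p = 0.00838), and *Npc1* had a log2 fold change of 0.38 ± 0.10 (SE, edgeR adjusted p = 0.0105). The count was 3 without PIO 6 h replicate 2 and 1 with the receptor covariate or with the 6 PIO libraries alone. In CTRL it was 2 without PIO 6 h replicate 2 and 0 without CTRL 24 h replicate 3.

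In sterol synthesis 11 of 24 genes were lower (45.8%, next to 15.8% of all tested genes) and 1 higher in PIO (median log2 fold change -0.28), and 5 were lower and 3 higher in CTRL (median -0.03). *Sqle*, squalene epoxidase, went from 110, 95.1 and 101 CPM to 63.7, 57 and 62.8 CPM (log2 fold change -0.74 ± 0.13 SE, edgeR adjusted p = 0.000424). *Idi1* and *Msmo1* fell from 20.4, 40.9 and 16.6 CPM to 6.62, 4.75 and 9.44 CPM and from 89, 175 and 63 CPM to 37.7, 30.6 and 44.2 CPM, with log2 fold changes of -1.90 ± 0.34 (SE, edgeR adjusted p = 0.000679) and -1.54 ± 0.29 (SE, edgeR adjusted p = 0.000937). In both genes replicate 2 was the highest library at 6 h. The exception was *Tm7sf2*, a sterol reductase, which rose from 10.9, 8.46 and 12.4 CPM to 21.5, 19 and 22.1 CPM (log2 fold change 0.97 ± 0.19 SE, edgeR adjusted p = 0.00116). The lower count was 6 or 7 when PIO 6 h replicate 1 or 2 or PIO 24 h replicate 1 or 2 was left out, 6 with the 6 PIO libraries alone and 5 with the receptor covariate. In CTRL it was 2 or 3 when any CTRL library except CTRL 6 h replicate 3 was left out, and the higher count was 5 without CTRL 6 h replicate 1 or PIO 6 h replicate 2.

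**Figure D4:**
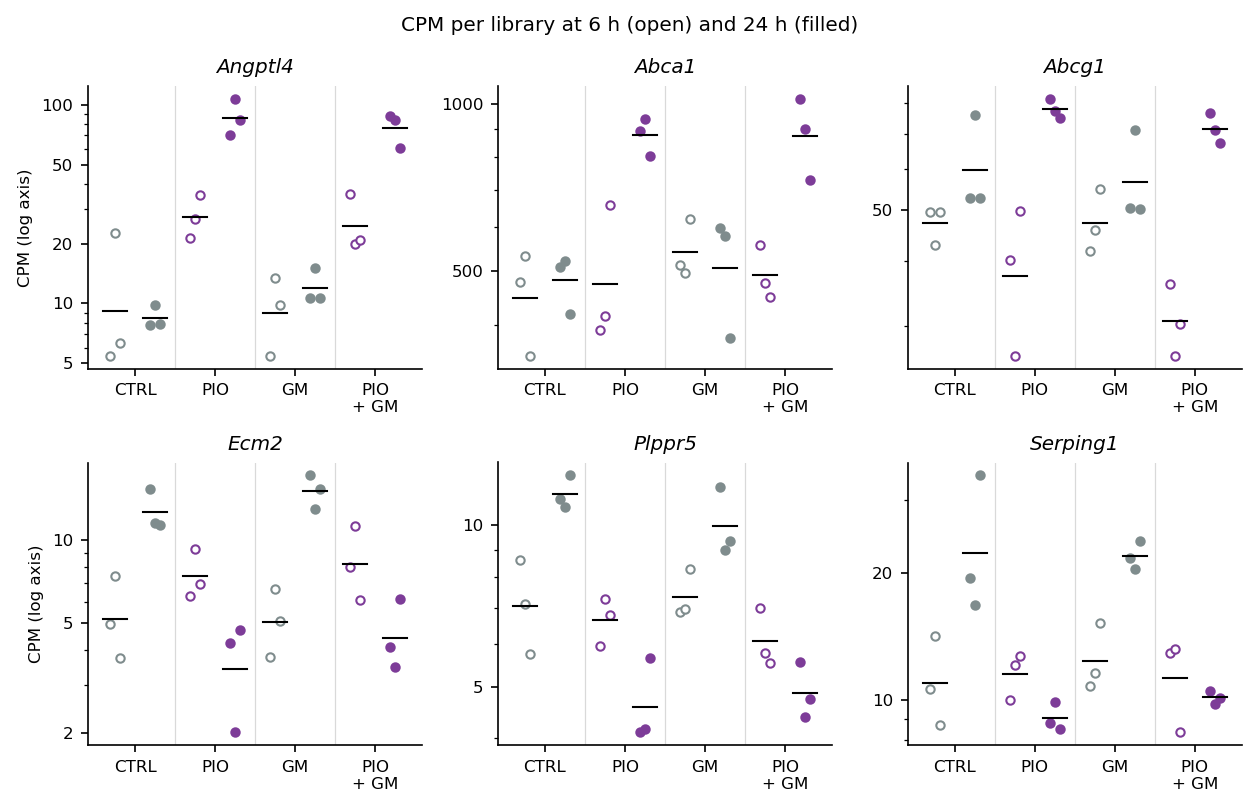
Each panel gives 1 gene's CPM on a log axis in every library of the 8 groups, with open circles at 6 h and filled circles at 24 h, purple where pioglitazone was present, and a bar at the geometric mean of each group's 3 libraries. *Angptl4*, *Abca1* and *Abcg1* have their highest group means in the 24 h groups with pioglitazone, and *Ecm2*, *Plppr5* and *Serping1* in the 24 h groups without it.

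The smallest unadjusted p-values for a different time change with pioglitazone, on the side of a lower change, belonged to *Ecm2*, *Plppr5*, *C1ra*, *Serping1* and the overlapping pair *C1qtnf5* and *Mfrp*. *Ecm2*, on chromosome 13 (49504810 to 49532789), encodes an extracellular matrix protein. It went from 6.31, 9.3 and 6.94 CPM to 4.24, 2.02 and 4.72 CPM in PIO and from 4.98, 7.4 and 3.75 CPM to 15.3, 11.6 and 11.4 CPM in CTRL. The times did not overlap in either group, and they went in opposite directions, with log2 fold changes of -1.04 ± 0.33 (SE, edgeR adjusted p = 0.0229) and 1.25 ± 0.32 (SE, edgeR adjusted p = 0.00685). The difference was -2.29 ± 0.46 (SE, edgeR adjusted p = 0.898). In the gentamicin libraries the levels were 3.78, 6.65 and 5.1 CPM and then 17.2, 13 and 15.3 CPM in GM, and 8.04, 11.3 and 6.07 CPM and then 4.1, 3.48 and 6.13 CPM in PIO + GM, and the difference was -2.45 ± 0.45 (SE, edgeR adjusted p = 0.462).

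*Plppr5*, of the phospholipid phosphatase-related family, showed the same crossing at a smaller size. It went from 5.96, 7.29 and 6.8 CPM to 4.11, 4.16 and 5.65 CPM in PIO (log2 fold change -0.53 ± 0.19 SE, edgeR adjusted p = 0.0414) and from 8.6, 7.14 and 5.75 CPM to 11.2, 10.8 and 12.4 CPM in CTRL (log2 fold change 0.67 ± 0.18 SE, edgeR adjusted p = 0.0102), with a difference of -1.20 ± 0.26 (SE, edgeR adjusted p = 0.898) and, with gentamicin, of -0.76 ± 0.26 (SE, edgeR adjusted p = 0.843). *C1qtnf5* and *Mfrp*, on chromosome 9 (44101770 to 44109187 for *Mfrp*), lie on top of each other and have identical counts, so they are 1 measurement. They had 6.75, 6.45 and 5.64 CPM and then 1.35, 1.95 and 1.86 CPM in PIO (log2 fold change -1.86 ± 0.30 SE, edgeR adjusted p = 0.000278) and stayed between 3.7 and 7.06 CPM in CTRL (log2 fold change -0.12 ± 0.28 SE, edgeR adjusted p = 0.792). The difference was -1.75 ± 0.41 (SE, edgeR adjusted p = 0.898) and, with gentamicin, -1.38 ± 0.41 (SE, edgeR adjusted p = 0.843). On the side of a higher change, beside *Angptl4*, stood *Eno3*, the muscle-type enolase, with 5.52, 6.13 and 4.77 CPM and then 14.9, 11.8 and 11.8 CPM in PIO (log2 fold change 1.23 ± 0.19 SE, edgeR adjusted p = 0.000226) and a difference of 0.98 ± 0.27 (SE, edgeR adjusted p = 0.898), or 0.78 ± 0.27 (SE, edgeR adjusted p = 0.843) with gentamicin. *Spata33* and *B3galt6* had differences of 2.00 ± 0.63 (SE, edgeR adjusted p = 0.898) and 0.66 ± 0.21 (SE, edgeR adjusted p = 0.898), and of -0.31 ± 0.61 (SE, edgeR adjusted p = 0.917) and 0.17 ± 0.21 (SE, edgeR adjusted p = 0.86) with gentamicin.

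The set of increases described here leaves out genes that were also named for a small interaction p on the higher side. Within it, *Ranbp3l* had the largest increase in PIO of the genes called higher with all 24 h libraries above all 6 h libraries. It had 0.876, 2.01 and 1.01 CPM at 6 h and 18.3, 17.2 and 18.2 CPM at 24 h, with a log2 fold change of 3.81 ± 0.41 (SE, edgeR adjusted p = 9.06e-06), and 3.06 ± 0.38 in CTRL. *Rbpjl*, a relative of the Notch effector RBPJ, went from 0.175, 0.423 and 0.578 CPM to 3.92, 4.42 and 4 CPM (log2 fold change 3.33 ± 0.51 SE, edgeR adjusted p = 0.000184). *Rxfp3*, the receptor for relaxin-3, went from 2.02, 1.59 and 2.31 CPM to 19.5, 20.7 and 8.37 CPM (log2 fold change 3.02 ± 0.52 SE, edgeR adjusted p = 0.00044). Both also rose in CTRL, with log2 fold changes of 2.81 ± 0.45 and 2.70 ± 0.49. *Noxa1*, an activator of NADPH oxidase, had a log2 fold change of 3.00 ± 0.55 (SE, edgeR adjusted p = 0.000788), and the sulfate transporter *Slc13a4* one of 2.75 ± 0.62 (SE, edgeR adjusted p = 0.00326). *Ndufa4l2*, a gene induced by hypoxia, had 2.89, 1.48 and 30.4 CPM at 6 h, with replicate 3 far above the other early libraries, and 66.3, 121 and 81.9 CPM at 24 h (log2 fold change 2.92 ± 0.87 SE, edgeR adjusted p = 0.0171). *H19*, an imprinted noncoding RNA that overlaps the microRNA gene *Mir675*, was the most abundant of the group, with 626, 454 and 1350 CPM and then 3140, 5440 and 3590 CPM (log2 fold change 2.33 ± 0.44 SE, edgeR adjusted p = 0.000904). *D030045P18Rik*, *Rab26* and *Zfp648* had log2 fold changes from 2.32 to 2.75. These genes, and *Lyz2* with them, were also called higher in CTRL, which does not cover the genes left out.

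The genes with the largest decrease were often near the detection limit at 24 h. *Tfpi2*, a protease inhibitor of the extracellular matrix, had 16, 22.8 and 14.7 CPM at 6 h and 0.385, 0.325 and 0.0715 CPM at 24 h, with a log2 fold change of -6.01 ± 0.62 (SE, edgeR adjusted p = 5.87e-06), and -5.55 ± 0.55 in CTRL. *Tac1*, the precursor of substance P, had 129 counts at 6 h and 3 at 24 h over 3 libraries each, a ratio of 56.1 after scaling to library size (exact 95% interval 18.8 to 275.6). Its log2 fold change was -5.70 ± 0.78 (SE, edgeR adjusted p = 6.5e-05), next to -2.59 ± 0.63 (SE, edgeR adjusted p = 0.00496) in CTRL. *Pmch*, a neuropeptide precursor, had 72 counts at 6 h and 3 at 24 h over 3 libraries each, a ratio of 31.3 after scaling to library size (exact 95% interval 10.3 to 155.4), and *Dhrs9* had 77 counts at 6 h and 4 at 24 h over 3 libraries each, a ratio of 25.1 after scaling to library size (exact 95% interval 9.42 to 94.51). These intervals cover counting error only. *Klhdc8a* went from 20.9, 17.9 and 8.24 CPM to 1.03, 0.585 and 0.572 CPM (log2 fold change -4.40 ± 0.54 SE, edgeR adjusted p = 2.69e-05) and *Pde4c*, a phosphodiesterase of cyclic AMP, from 7.27, 6.66 and 2.6 CPM to 0.385, 0.13 and 0.357 CPM (log2 fold change -4.196 ± 0.72 SE, edgeR adjusted p = 0.000458). *Sprr1a*, which injured nerve and epithelium induce, went from 5, 5.18 and 4.92 CPM to 0.0642, 0.52 and 0.143 CPM (log2 fold change -4.31 ± 0.67 SE, edgeR adjusted p = 0.000223). *Gjb1* and *Pmp2*, both made by Schwann cells, had log2 fold changes of -4.25 ± 0.87 (SE, edgeR adjusted p = 0.00173) and -4.37 ± 0.93 (SE, edgeR adjusted p = 0.00212). With *Ccl2*, *Ccl7* and *Fosl1*, described above, all 12 were also called lower in CTRL.

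Of 45 genes of the cell cycle, 16 were higher in PIO at 24 h (35.6%, next to 13.2% of all tested genes) and 2 lower, with a median log2 fold change of 0.60, and in CTRL 7 were higher and 2 lower, with a median of 0.34. Apart from *Cdkn1c*, a kinase inhibitor (1.76 ± 0.59 on the log2 scale), the higher members act in S phase or mitosis. *Anln*, of cytokinesis, went from 8.33, 9.73 and 9.4 CPM to 17, 23 and 20.7 CPM (log2 fold change 1.14 ± 0.17 SE, edgeR adjusted p = 0.000114), and *Bub1b*, of the spindle checkpoint, from 5.17, 7.29 and 7.74 CPM to 19, 23.2 and 15.7 CPM (log2 fold change 1.51 ± 0.27 SE, edgeR adjusted p = 0.000516). *Ccnb1*, the mitotic cyclin, had 1.23, 2.54 and 1.74 CPM and then 5.33, 10.1 and 3.57 CPM (log2 fold change 1.80 ± 0.40 SE, edgeR adjusted p = 0.00321), and *Kif20a* a log2 fold change of 1.20 ± 0.30 (SE, edgeR adjusted p = 0.00678). The cyclin-dependent kinase inhibitor *Cdkn1a* (log2 fold change -0.90 ± 0.28 SE, edgeR adjusted p = 0.0219) and *Pcna* (log2 fold change -0.83 ± 0.20 SE, edgeR adjusted p = 0.00468), of DNA replication, were lower. The higher count was 3 without PIO 24 h replicate 2, 8 and 9 without PIO 6 h replicates 1 and 2, and 3, with 5 lower, with the receptor covariate. The 6 PIO libraries alone gave 5. In CTRL the higher count was 2 without CTRL 6 h replicate 2, 3 without CTRL 24 h replicate 2 and 4 without CTRL 6 h replicate 1 or CTRL 24 h replicate 1.

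Of 28 lysosomal genes, 14 were higher (50%, next to 13.2% of all tested genes) and 2 lower in PIO and 15 higher in CTRL, with medians of 0.33 and 0.35. *Hexa*, a hexosaminidase, went from 78, 59.1 and 91.4 CPM to 161, 150 and 146 CPM (log2 fold change 1.00 ± 0.14 SE, edgeR adjusted p = 6.89e-05), and *Ctsa*, *Glb1* and *Ctsf* had log2 fold changes of 0.77 ± 0.10 (SE, edgeR adjusted p = 5.3e-05), 0.72 ± 0.12 (SE, edgeR adjusted p = 0.000488) and 0.64 ± 0.11 (SE, edgeR adjusted p = 0.000443). *Ctsl* and *Atp6v1h* were lower with log2 fold changes of -0.61 ± 0.20 (SE, edgeR adjusted p = 0.0311) and -0.49 ± 0.17 (SE, edgeR adjusted p = 0.0383). The higher count was 9 without PIO 6 h replicate 2 and 8 with the 6 PIO libraries alone, and no member was lower without that library or any 1 of the PIO 24 h libraries. Of 22 clock genes, 4 were higher and 4 lower in PIO (18.2% each), near the 13.2% and 15.8% of all tested genes. *Per3* went from 64.1, 42.1 and 74.8 CPM to 168, 154 and 160 CPM (log2 fold change 1.41 ± 0.17 SE, edgeR adjusted p = 2.68e-05), and *Tef* and *Dbp* rose with log2 fold changes of 1.22 ± 0.16 (SE, edgeR adjusted p = 5.27e-05) and 1.21 ± 0.20 (SE, edgeR adjusted p = 0.000372). On the opposite side *Arntl*, the gene of BMAL1, went from 84.2, 80.8 and 63.7 CPM to 42.5, 33.9 and 49.5 CPM (log2 fold change -0.86 ± 0.20 SE, edgeR adjusted p = 0.00389), and *Cry1*, *Clock* and *Nfil3* had log2 fold changes of -0.88 ± 0.17 (SE, edgeR adjusted p = 0.000978), -0.63 ± 0.17 (SE, edgeR adjusted p = 0.0107) and -0.81 ± 0.26 (SE, edgeR adjusted p = 0.0246). In CTRL 5 were higher and 4 lower. The 2 times of sampling differ in time of day unless exposure was staggered, which the labels do not say.

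Of 36 genes of glycolysis and the response to hypoxia, 3 were higher (8.33%, below the 13.2% of all tested genes) and none lower in PIO, with a median log2 fold change of 0.51. *Aldoc*, an aldolase, went from 36.2, 40.4 and 45.4 CPM to 91.9, 86 and 97.3 CPM (log2 fold change 1.17 ± 0.21 SE, edgeR adjusted p = 0.000531), and *Pfkm*, a phosphofructokinase, had a log2 fold change of 1.04 ± 0.22 (SE, edgeR adjusted p = 0.00179). *Car9*, a carbonic anhydrase induced by hypoxia, had 18.2, 15.1 and 84.9 CPM at 6 h, with replicate 3 well above the others, and a log2 fold change of 1.94 ± 0.65 (SE, edgeR adjusted p = 0.0307). The count rose to 15 without PIO 6 h replicate 3. Among 35 genes of oxidative phosphorylation 4 were higher (11.4%) and 6 lower (17.1%), shares near the 13.2% and 15.8% of all tested genes. *Cycs*, cytochrome c, had 71.8, 153 and 71.4 CPM at 6 h and 37.9, 25.8 and 41.5 CPM at 24 h (log2 fold change -1.49 ± 0.25 SE, edgeR adjusted p = 0.000375), and *Atp5b*, *Atp5g1* and *Cox5a* were lower with log2 fold changes of -0.54 ± 0.11 (SE, edgeR adjusted p = 0.00174), -0.74 ± 0.16 (SE, edgeR adjusted p = 0.00284) and -0.57 ± 0.13 (SE, edgeR adjusted p = 0.00287). *Sdhc* (log2 fold change 0.49 ± 0.11 SE, edgeR adjusted p = 0.00382), *Ndufc1* (log2 fold change 0.57 ± 0.17 SE, edgeR adjusted p = 0.018) and *Cox4i1* (log2 fold change 0.31 ± 0.10 SE, edgeR adjusted p = 0.0293) were among the higher members, and the sign of *Cox4i1* turned once the GC trend was removed. Without PIO 6 h replicate 1 or 3, 10 and 11 were lower, and without PIO 6 h replicate 1 or PIO 24 h replicate 1, 1 was higher.

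Few Toll-like receptor and STAT components, which the study examined, passed the threshold. The study compared treatments at the same time, for some genes also by qPCR, whereas the values here compare 24 h with 6 h. They therefore do not test the drug effects that the study reports. In PIO 3 of 39 were higher (7.69%) and 4 lower (10.3%), below the 13.2% and 15.8% of all tested genes. *Tlr2* went from 14.6, 19.5 and 12.7 CPM to 8.93, 8.91 and 7.79 CPM, without overlap (log2 fold change -0.87 ± 0.28 SE, edgeR adjusted p = 0.0244), and had a log2 fold change of -0.80 ± 0.27 (SE, edgeR adjusted p = 0.0342) in CTRL. *Cd14* and the kinases *Jak1* and *Jak2* were lower with log2 fold changes of -1.61 ± 0.57 (SE, edgeR adjusted p = 0.0393), -0.55 ± 0.14 (SE, edgeR adjusted p = 0.00755) and -0.53 ± 0.19 (SE, edgeR adjusted p = 0.0379). *Tlr5* rose from 4.47, 3.7 and 11.5 CPM to 19.5, 39.6 and 17.4 CPM (log2 fold change 1.94 ± 0.48 SE, edgeR adjusted p = 0.00585), and *Irak4* and *Tyk2* rose with log2 fold changes of 0.63 ± 0.23 (SE, edgeR adjusted p = 0.0434) and 0.51 ± 0.18 (SE, edgeR adjusted p = 0.0401). *Tlr4*, *Myd88*, *Tirap*, *Irf3*, *Irf7* and *Pias1* did not pass in PIO, with log2 fold changes of -0.22 ± 0.23, -0.24 ± 0.30, -0.18 ± 0.17, 0.07 ± 0.18, -0.69 ± 0.62 and 0.18 ± 0.12. *Pias1*, an inhibitor of STAT signaling, had 66.1, 75.3 and 65.8 CPM and then 75.4, 82.5 and 77.1 CPM. It passed in CTRL with a log2 fold change of 0.43 ± 0.12 (SE, edgeR adjusted p = 0.0116), and the difference was -0.24 ± 0.17 (SE, edgeR adjusted p = 0.898). The 18 genes that the study names from these libraries are a list that is not independent of them. Of these, 7 were lower in PIO (38.9%, next to 15.8% of all tested genes). Beside those given above they included *Il16* (log2 fold change -1.14 ± 0.33 SE, edgeR adjusted p = 0.0159) and *Cxcl16* (log2 fold change -0.75 ± 0.28 SE, edgeR adjusted p = 0.0498), whereas *Cxcl10* (log2 fold change -1.82 ± 0.89 SE, edgeR adjusted p = 0.128), *Usp18* (log2 fold change -1.60 ± 0.72 SE, edgeR adjusted p = 0.1), *Ccl9* (log2 fold change -0.07 ± 0.50 SE, edgeR adjusted p = 0.937) and *Ccl12* (log2 fold change -0.43 ± 1.02 SE, edgeR adjusted p = 0.779) did not pass. Single libraries decided many of these calls, and 1 to 3 of the 18 were lower when any PIO library except PIO 6 h replicate 3 was left out. Of the Toll-like receptor and STAT components, 8 were higher without PIO 6 h replicate 3, and 1 was higher without PIO 6 h replicate 2 or PIO 24 h replicate 1 or 2. The lower count was 2 without PIO 6 h replicate 2 or PIO 24 h replicate 2, and 1 without PIO 24 h replicate 1 or 3.

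Markers of cell types were described beside these lists because fewer cells of a type and less RNA per cell cannot be told apart in whole explants. Of the hair cell markers, 4 of 39 were higher (10.3%) and 2 lower (5.13%) in PIO, smaller shares than the 13.2% and 15.8% of all tested genes. *Espn*, of the hair bundle, had 6.13, 2.43 and 7.16 CPM and then 8.93, 14 and 11.6 CPM (log2 fold change 1.12 ± 0.35 SE, edgeR adjusted p = 0.0232), and *Lhx3*, *Barhl1* and *Chrna10* rose with log2 fold changes of 1.53 ± 0.48 (SE, edgeR adjusted p = 0.023), 1.00 ± 0.35 (SE, edgeR adjusted p = 0.0401) and 1.22 ± 0.40 (SE, edgeR adjusted p = 0.029). *Slc17a8*, the glutamate transporter of inner hair cell synapses, had 30.9, 48.3 and 12.9 CPM and then 8.29, 8.65 and 14.3 CPM, with 1 early library inside the later range, and log2 fold changes of -1.56 ± 0.48 (SE, edgeR adjusted p = 0.0216) in PIO and -1.46 ± 0.47 in CTRL. *Pvalb* was lower with a log2 fold change of -1.98 ± 0.52 (SE, edgeR adjusted p = 0.00899), where PIO 6 h replicate 2 was highest. The higher count was 0 to 2 without PIO 6 h replicate 2 or 3 or any PIO 24 h library, and 7 without CTRL 6 h replicate 3. No hair cell marker was lower without PIO 6 h replicate 2, and 1 was without PIO 24 h replicate 1 or 2. Of 29 supporting cell markers, *Gjb6*, a gap junction gene, rose (log2 fold change 1.00 ± 0.33 SE, edgeR adjusted p = 0.0268) and *Fst* fell (log2 fold change -1.58 ± 0.41 SE, edgeR adjusted p = 0.00764), shares below those of all tested genes. *Gjb6* was not called without PIO 6 h replicate 1 or PIO 24 h replicate 1 or 2.

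Macrophage markers were higher for 5 of 20 (25%, next to 13.2% of all tested genes) and lower for none. *Lyz2* had 3.24, 8.77 and 13 CPM at 6 h and 38.1, 70 and 19.1 CPM at 24 h (log2 fold change 2.34 ± 0.65 SE, edgeR adjusted p = 0.012), *C1qc* had a log2 fold change of 1.54 ± 0.54 (SE, edgeR adjusted p = 0.0382) and *Trem2* one of 1.28 ± 0.35 (SE, edgeR adjusted p = 0.012). The summed level of the list was 119 to 194 CPM at 6 h and 165 to 393 CPM at 24 h, and in CTRL 133 to 240 and 229 to 294. No member was called without PIO 6 h replicate 1 or PIO 24 h replicate 2, 1 without PIO 6 h replicate 2 and 3 without PIO 24 h replicate 1. The fit on the 6 PIO libraries alone called none, and that with the receptor covariate 1. Schwann cell markers were lower for 4 of 16 (25%, next to 15.8% of all tested genes), all of them myelin genes. *Pmp22*, a protein of peripheral myelin, had 86.8, 441 and 86.5 CPM and then 44.3, 55.9 and 76.4 CPM, a log2 fold change of -1.80 ± 0.62 (SE, edgeR adjusted p = 0.0357). *Mag* and *Mal* had log2 fold changes of -2.29 ± 0.77 (SE, edgeR adjusted p = 0.0321) and -0.87 ± 0.29 (SE, edgeR adjusted p = 0.0298). *S100b* rose from 70.8, 93.9 and 113 CPM to 673, 202 and 359 CPM (log2 fold change 2.15 ± 0.51 SE, edgeR adjusted p = 0.00435). PIO 6 h replicate 2 had the highest *Mag* and *Pmp22*, and without it, or without PIO 24 h replicate 1 or 2, none of the Schwann cell markers was called lower, and 1 without PIO 24 h replicate 3. In CTRL, *Pmp22* went from 223, 439 and 125 CPM to 87.6, 88.1 and 61.9 CPM (log2 fold change -1.73 ± 0.62 SE, edgeR adjusted p = 0.0426).

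Of 7 blood genes, 4 were lower in PIO (57.1%, next to 15.8% of all tested genes). In CTRL 6 were lower (85.7%, next to 13.2% of all tested genes) and 1 was higher. *Hbb-bs*, a globin gene that shares most of its sequence with *Hbb-bt*, had 54.2, 111 and 124 CPM and then 29.7, 62.3 and 35.4 CPM (log2 fold change -1.19 ± 0.44 SE, edgeR adjusted p = 0.0479), and *Alas2*, of heme synthesis, 3.86, 4.97 and 5.86 CPM and then 1.28, 2.41 and 1.43 CPM (log2 fold change -1.52 ± 0.40 SE, edgeR adjusted p = 0.00948). The lower count in PIO was 2 without PIO 24 h replicate 1 or 3. Of 5 skeletal muscle markers 2 were lower in PIO (40%, next to 15.8% of all tested genes) and 2 in CTRL. In PIO these were *Des*, from 31.5, 30.4 and 24.7 CPM to 8.29, 7.15 and 8.15 CPM (log2 fold change -1.88 ± 0.20 SE, edgeR adjusted p = 9.06e-06), and *Myh8*, with 39 counts at 6 h and 2 at 24 h over 3 libraries each, a ratio of 25.4 after scaling to library size (exact 95% interval 6.59 to 217.5). PIO 6 h replicate 2 held 27 of the 39 early counts of *Myh8*, and without it 1 muscle marker was lower. *Dmp1*, of bone, went from 112, 148 and 84.6 CPM to 10.3, 17.6 and 8.94 CPM (log2 fold change -3.22 ± 0.48 SE, edgeR adjusted p = 0.000154). Of 18 neuron markers, *Syt1* rose (log2 fold change 1.08 ± 0.31 SE, edgeR adjusted p = 0.0146) and *Gap43* fell (log2 fold change -0.83 ± 0.24 SE, edgeR adjusted p = 0.0138). These shares, 5.56% each, were below the 13.2% and 15.8% of all tested genes. *Syt1* was not called without PIO 24 h replicate 1, nor *Gap43* without PIO 6 h replicate 1 or PIO 24 h replicate 1. In mesenchyme, *Pdgfra* (log2 fold change 0.81 ± 0.14 SE, edgeR adjusted p = 0.000424) and *Tbx18* (log2 fold change 0.91 ± 0.32 SE, edgeR adjusted p = 0.038) rose and *Dcn*, a matrix proteoglycan, fell from 263, 625 and 260 CPM to 234, 149 and 190 CPM (log2 fold change -1.003 ± 0.29 SE, edgeR adjusted p = 0.0143), while in CTRL *Dcn* had a log2 fold change of 0.06 ± 0.28 (SE, edgeR adjusted p = 0.91) and the difference was -1.06 ± 0.40 (SE, edgeR adjusted p = 0.898). Of 14 markers of endothelium and pericytes, 2 were higher (14.3%) and 1 lower (7.14%), next to 13.2% and 15.8% of all tested genes. The called pericyte genes went in both directions. *Rgs5* fell (log2 fold change -1.69 ± 0.33 SE, edgeR adjusted p = 0.00128), while *Kcnj8* (log2 fold change 1.07 ± 0.36 SE, edgeR adjusted p = 0.0331) and *Cspg4* (log2 fold change 1.14 ± 0.37 SE, edgeR adjusted p = 0.0291) rose. Neither *Kcnj8* nor *Cspg4* was called without PIO 6 h replicate 2 or PIO 24 h replicate 2. Only 1 marker of this list was higher without PIO 6 h replicate 1 or PIO 24 h replicate 1, and 2 were lower without PIO 24 h replicate 2. Of the 18 mesenchyme markers, 2 were higher (11.1%) and 1 lower (5.56%), below the 13.2% and 15.8% of all tested genes. In this list 5 were higher without PIO 6 h replicate 3 and 1 without PIO 6 h replicate 1 or 2 or PIO 24 h replicate 1 or 2. The lower count was 1 with all libraries, 2 without PIO 6 h replicate 3 and 0 without PIO 6 h replicate 2 or PIO 24 h replicate 2. None of 11 markers of the stria vascularis was called in PIO or CTRL.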

How the data were processed

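RNA from 24 pools of 6 OCs was sequenced as stranded total RNA with single reads. The authors aligned reads to mm10 with STAR and deposited raw counts of reads per RefSeq gene. Whether counting used strand, and how reads with several alignments were treated, is not given in the sources used here. Of 24454 genes, 24374 matched a symbol of the RefSeq annotation. Counts were tested with edgeR 4.0.16 in R 4.3.3: genes were filtered with filterByExpr, libraries scaled by TMM, and a quasi-likelihood F-test was run in 1 model of all 24 libraries and 8 groups, with Benjamini-Hochberg adjustment over the 16317 genes left and a threshold of 0.05. The standard error (SE) is the log2 fold change divided by the root of F. CPM are TMM-normalised. The difference between the PIO and CTRL changes was an interaction contrast. Ratios of low counts have exact 95% binomial intervals, which cover counting error only and not the spread between libraries. The procedure was tested on simulated data. Alternatives were another scaling, other filters, DESeq2 1.42.0, the likelihood ratio test, fewer libraries, a replicate block, removal of the GC trend, thinning to 1 depth and leaving out each library. Use of receptor counts as a covariate or background and a covariate of Y-linked counts were chosen after seeing the data.

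Groups came from the sample labels. The gene lists, markers and comparisons were chosen with earlier results of these data known. Named genes were the largest increases and decreases, at most 12 of each, among genes called in PIO whose libraries did not overlap between times and whose mean was at least 2 CPM in the higher group, the 5 with the smallest interaction p on each side, up to 4 called members of each list in each direction by p, the genes that the study names in its sequencing results, and 6 genes known to respond to PPAR agonists. Genes without a symbol, X-inactivation transcripts and Y-linked genes were not named. Any gene beyond these was chosen after its values were seen. All libraries and all columns of the table were used. A few of the genes so chosen are not reported here.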

Additional observations from a re-analysis of the deposited data

Results flagged for a closer look

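*Ecm2* was the gene whose change between 6 and 24 h differed between libraries with and without pioglitazone by 3 of the tests run, although edgeR's quasi-likelihood test did not call it. The PIO change minus the CTRL change was -2.28 ± 0.46 on the log2 scale by DESeq2's Wald test (SE, adjusted p = 0.0138), -2.29 ± 0.47 by edgeR's likelihood ratio test (SE, adjusted p = 0.0177) and -2.37 ± 0.32 by edgeR with a replicate block within each time (SE, adjusted p = 0.0204). The PIO + GM change minus the GM change was -2.47 ± 0.46 by DESeq2's Wald test (SE, adjusted p = 0.00118), -2.45 ± 0.47 by the likelihood ratio test (SE, edgeR adjusted p = 0.00231) and -2.45 ± 0.31 with the replicate block within each time (SE, edgeR adjusted p = 0.0122). All libraries with pioglitazone were lower at 24 h than at 6 h apart from 1 library of PIO + GM at 24 h that lay above 1 library at 6 h, and all libraries without pioglitazone were higher at 24 h.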

How the results depend on the processing

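With the 6 PIO libraries alone, 1540 genes were called in PIO, and 1206 were then called in both PIO and CTRL. With the log2 level of receptor genes as a covariate, chosen after seeing the data, 2470 were called in PIO. The number of genes whose change differed between PIO and CTRL, and between PIO + GM and GM, was 1 and 1 by DESeq2, by the likelihood ratio test and with a replicate block within each time. By the quasi-likelihood test without a block it was 0 and 0, both with all libraries and whenever 1 library was left out. The settings that called 1 gene were not run with a library left out, so whether that call depends on single libraries was not tested. Leaving out 1 library at a time gave 2702 (without PIO 6 h replicate 2) to 6055 (without PIO 6 h replicate 3) genes in PIO, 2665 (without CTRL 6 h replicate 2) to 5199 in CTRL and 2022 to 3155 in both. Other settings gave 3473 to 5587 genes in PIO. *Cox4i1* turned to -0.0402 with the GC trend removed and to -0.0266 with the GC trend removed and the replicate block. The causes were not tested.

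Replicate numbers are shared across groups in the labels, but libraries with the same number did not deviate together between times (mean correlation of deviations -0.123 in PIO and 0.0338 in CTRL), so no block over both times was used in the report. Between PIO and CTRL of the same time, the correlations were 0.287, 0.1998 and -0.136 at 6 h (mean 0.117, against -0.0516 for other numbers) and 0.107, 0.561 and 0.227 at 24 h (mean 0.298, against -0.139), so at 24 h, but not at 6 h, every pair exceeded 0.1. The block within each time is the one under which *Ecm2* was called. With the replicate block over both times, 5023 genes were called in PIO, 4897 in CTRL, 3260 in both, and 0 and 0 for the differences.

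Of 5140 values of named genes under these settings, 4656 kept their direction and side of the threshold, 477 lost the threshold, 5 gained it and 2 reversed. Of 1890 counts of called list members, 1585 stayed within 1.5 times the reported count. Levels under 1 CPM rest on few counts per library, 3 counts being 0.193 to 0.314 CPM in the PIO libraries.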
